A study of Mus musculus with 2 samples.

Results

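The genes described here encode enzymes that cut the extracellular matrix and the cell surface, with their inhibitors and the plasminogen activation system. A list of 31 mouse gene symbols was used: 9 matrix metalloproteases (MMPs), 9 ADAMs, 6 ADAMTS proteases, 3 TIMPs and 4 genes of the plasminogen system. Of these, 29 had a row with a single symbol in the expression table, each with 1 row, out of 19871 genes in all. Adamts2, a procollagen protease, and Serpine2, the inhibitor protease nexin-1, matched no row through the annotation and were not analysed here.

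The samples were 1 culture of bone marrow derived macrophages labelled beta-catenin deficient and 1 control culture, both from mice aged 8 weeks. Both were grown in RPMI-1640 with fetal bovine serum and medium taken from cultures of L929, a fibroblast line used as a source of macrophage colony-stimulating factor. Total RNA of each culture was hybridised to 1 Affymetrix 1.0 ST array, whose probes lie along the whole transcript of a gene. The sources used here do not give the strain, the deleted part of the beta-catenin gene, the Cre driver or any pooling of animals.

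MMPs, ADAMs and ADAMTS enzymes are zinc proteases made as inactive precursors. MMPs degrade collagens, elastin and other matrix proteins, ADAMs mainly release membrane proteins such as cytokines and receptors from the cell surface, and ADAMTS enzymes process collagen and proteoglycans. TIMPs block the active site of these enzymes. Plasminogen activators make plasmin, a serine protease that degrades fibrin and activates several pro-MMPs. Macrophages use these systems to move through tissue, to clear matrix and to release tumour necrosis factor.

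Beta-catenin is a cadherin partner and the nuclear effector of canonical Wnt signals, and the comparison asks what differs in macrophages that lack it. Its gene, Ctnnb1, had a value of 11.44 in the array labelled deficient and 11.29 in the control array, so it was not lower. Probes outside the deleted part check nothing about the deletion, so the sample is named below only by its label. Axin2, a feedback gene switched on by beta-catenin, had 5.97 in the array labelled deficient and 7.61 in the control array, a difference of -1.64. Values are RMA values on the log2 scale, and each difference is the array labelled deficient minus the control array. With 1 array a group there is no replicate error and no test was possible, and "higher" or "lower" describes these 2 arrays. The number of arrays limits the precision.

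A cluster of 10 Mmp genes on chromosome 9 holds 4 of the members. Their promoters are printed because 2 of the 4 were over 2-fold higher and the other 2 were dim in both arrays although they hold the same short motifs. The window of Mmp8, a neighbour that is not among the 31 symbols, is added because that gene was also over 2-fold higher and its window lacks the AP-1 letters. Each window runs from 250 bases before to 50 bases after an annotated start and is taken from RefSeq (build GRCm38.p6), 5′ to 3′ on the strand named. Capitals mark matches to AP-1 (TGAGTCA or TGACTCA), to TCF/LEF, the DNA-binding partners of beta-catenin, and to the TATA box letters TATAAA on the strand shown. The TCF/LEF letters, searched on both strands, were CTTTGAA and 3 variants of its ending, which were CTTTGAT, the form CTTTGTA and the form CTTTGTT.
Mmp13 (chr9:7272264-7272563, plus strand): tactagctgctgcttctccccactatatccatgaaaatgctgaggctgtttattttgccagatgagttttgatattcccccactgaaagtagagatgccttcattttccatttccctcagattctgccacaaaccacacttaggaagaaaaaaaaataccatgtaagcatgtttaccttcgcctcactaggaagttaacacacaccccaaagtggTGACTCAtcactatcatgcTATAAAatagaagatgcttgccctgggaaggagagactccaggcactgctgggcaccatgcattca
Mmp12 (chr9:7347124-7347423, plus strand): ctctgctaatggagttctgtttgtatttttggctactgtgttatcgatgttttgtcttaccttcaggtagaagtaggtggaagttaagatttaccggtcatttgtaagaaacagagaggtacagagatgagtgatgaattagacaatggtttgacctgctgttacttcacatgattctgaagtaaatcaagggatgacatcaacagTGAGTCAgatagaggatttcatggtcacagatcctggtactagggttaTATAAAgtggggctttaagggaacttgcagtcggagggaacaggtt
Mmp3 (chr9:7445572-7445871, plus strand): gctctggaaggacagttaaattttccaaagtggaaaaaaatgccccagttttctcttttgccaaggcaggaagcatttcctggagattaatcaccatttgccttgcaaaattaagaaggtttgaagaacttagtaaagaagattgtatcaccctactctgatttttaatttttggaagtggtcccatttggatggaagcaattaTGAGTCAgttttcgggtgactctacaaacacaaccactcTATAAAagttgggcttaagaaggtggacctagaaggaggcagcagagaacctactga
Mmp10 (chr9:7502092-7502391, plus strand): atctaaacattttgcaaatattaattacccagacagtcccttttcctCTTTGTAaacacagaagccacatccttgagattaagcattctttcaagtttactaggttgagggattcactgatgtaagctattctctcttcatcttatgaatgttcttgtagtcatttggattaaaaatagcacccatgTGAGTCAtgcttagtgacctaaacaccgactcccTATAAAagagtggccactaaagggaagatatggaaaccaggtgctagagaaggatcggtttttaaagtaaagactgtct
Mmp8 (chr9:7558179-7558478, plus strand): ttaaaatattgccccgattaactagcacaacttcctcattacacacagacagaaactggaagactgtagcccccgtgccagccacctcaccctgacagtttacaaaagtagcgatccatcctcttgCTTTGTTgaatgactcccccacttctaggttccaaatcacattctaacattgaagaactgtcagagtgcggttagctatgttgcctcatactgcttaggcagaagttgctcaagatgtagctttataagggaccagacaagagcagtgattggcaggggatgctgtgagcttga

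In the Mmp13 window an AP-1 match began 35 bases before the start, in that of Mmp12 44, in that of Mmp3 46 and in that of Mmp10 63 bases before it. The TATA letters began 16 bases before the start in Mmp13, 7 in Mmp3 and 29 in Mmp10. In Mmp12 they began after it, at position 5. All these distances rest on the annotated starts, and the starts used in these cultures were not tested. Mmp12 has another annotated start upstream, and the window there holds no AP-1 match and 1 TCF/LEF match. Among the printed windows, TCF/LEF letters were found in those of Mmp10 and Mmp8, and 0 of the matches overlapped another. AP-1 letters were present on either strand in 5.20% of 32851 promoter windows of the same length. Windows were given for 21 of the member genes (25 windows), and 6 windows, or 24.0%, held AP-1 letters: those of Mmp13, Mmp12, Mmp3, Mmp10, Plaur and Adam19. TCF/LEF letters were in 3 of the 25 member windows, those of Mmp12, Mmp10 and Adamts1, against 16.9% of all windows, and TATA letters in 20.0% against 8.32%. A match describes letters only and is not evidence of binding.

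Among the members, most of the matrix-degrading MMPs and the aggrecanase genes Adamts1 and Adamts5 were higher in the array labelled deficient. Timp1 and Timp3 were higher as well, while the sheddases of the ADAM family and the urokinase system were nearly level. Over all 29 members with a row and no filter on brightness, 10 were at least 1.5-fold higher, against 4.98% of all 19871 genes, and 0 were at least 1.5-fold lower, against 13.0% of all genes. At 2-fold, 8 members were higher, against 1.77% of all genes, and 0 lower, against 2.34%. The median difference of the 29 was 0.26, and that of all genes was -0.15. Members and lists were chosen with earlier results of these data known. The contrasts with all genes, here and below, are therefore descriptive and not independent evidence.

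The plot of member levels gives both values of each gene. RMA values carry no detection call, so a floor was set at 7.28, the median of the table, and a gene is called bright here when its higher value reached it. A bright gene need not be expressed, since the floor sorts genes by signal alone. Of the 29 members, 26 were bright, and Mmp3, Mmp10 and Adam28 lay below the floor in both arrays. Of all 19871 genes, 10658 were bright, so shares with no floor rest more on dim genes for all genes than for members. Of the 71 further family genes, 22 were bright, with a median of 0.14. Of these 22, 6 were at least 1.5-fold higher (7.54% of all bright genes) and 2 lower (8.81%). With no floor, 7 of the 71 were at least 1.5-fold higher (4.98% of all genes) and 12 lower (13.0%). Their median with no floor was -0.22, beside -0.15 for all genes. Among the 26, 10 were 1.5-fold or more higher, against 7.54% of all 10658 bright genes, and 8 were 2-fold or more higher, against 2.96%. None of the 26 was lower by 1.5-fold (8.81% of bright genes) or by 2-fold (1.59%). Adam23, Adamts1, Adamts5 and Plat passed the floor only through the array labelled deficient, so genes that pass this way must be higher there. Genes that pass only through the control array must be lower in the array labelled deficient. With both arrays required to be at or above the floor, 22 members were left, of which 7 were at least 1.5-fold higher (6.20% of 9632 genes) and 5 at least 2-fold higher (2.09%), and 0 were lower by 1.5-fold (7.53%) or 2-fold (1.09%).

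**Figure D1:**
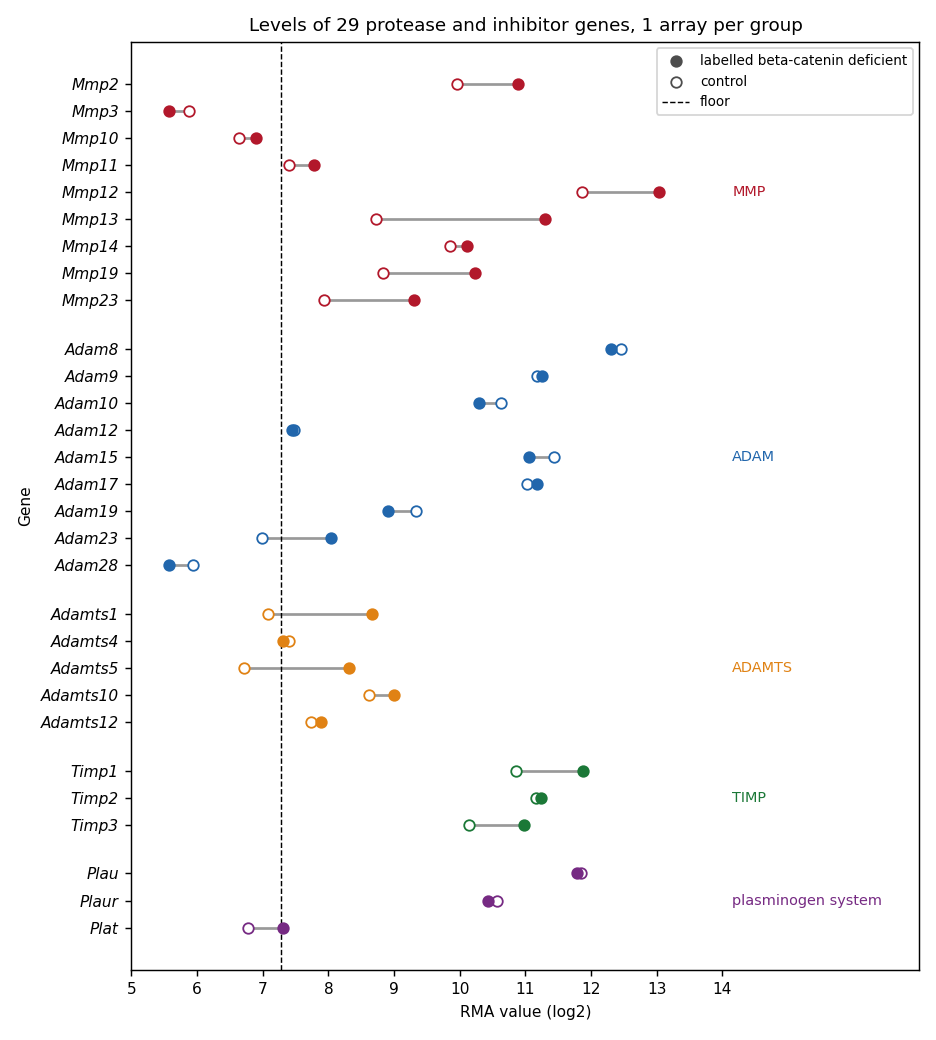
RMA values (log2, horizontal axis) of the 29 genes with a row, by family, with the array labelled beta-catenin deficient as filled points, the control array as open points and the floor of 7.28 as a dashed line. Mmp13, with 11.3 against 8.72, has the longest line. Positions should be compared within a gene and not between genes, because probes differ in brightness.

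Markers of other cells also differed between the cultures. Of 17 bright fibroblast and stromal markers, 14 were higher by 1.5-fold or more and 0 lower in the array labelled deficient. Their median difference was 0.88. Summed over all 19 stromal markers with a row, dim ones included, the signal on the linear scale was 44071 in the array labelled deficient and 28069 in control. Of 15 bright neutrophil granule markers, 12 were higher by 1.5-fold or more and 0 lower, the median was 1.30, and their summed signal was 16538 in the array labelled deficient and 7891 in control. Of 14 bright macrophage markers, 2 were higher by that much and 0 lower, the median was 0.10, and the signal summed over all 15 with a row was 63192 in the array labelled deficient and 59275 in control. The defining macrophage genes Adgre1 (12.23 in both arrays), Csf1r (12.35 in the array labelled deficient and 12.25 in control) and Cd68 (12.82 in the array labelled deficient and 12.71 in control) were well above the floor. Counts past 1.5-fold among bright genes of the other lists were 4 higher of 5 megakaryocyte and 3 higher of 5 mast and basophil markers. They were 3 higher of 8 osteoclast, 1 higher of 5 endothelial and 0 of 2 lymphocyte markers, with 0 lower in these lists. Of 4 dendritic markers, 2 were higher and 1 lower. The higher mast and basophil genes (Cpa3, Mcpt8 and Prss34) and endothelial gene (Emcn) passed the floor only through the array labelled deficient. Among the higher neutrophil granule genes, Prtn3, Ctsg, Retnlg and Chil3 passed the same way. So did Pdgfra of the stromal, Gp9 of the megakaryocyte and Cd209a of the dendritic markers. The lower dendritic gene, Ccr7, passed through control alone. With no floor, counts were 3 higher and 1 lower of 11 mast and basophil and of 10 osteoclast markers. They were 2 higher and 2 lower of 9 lymphocyte and 2 higher and 3 lower of 10 dendritic markers. In bulk RNA, fewer cells of a type and less RNA per cell cannot be told apart. RMA gives no zeros, so no marker could be at 0, and 2 stromal, 0 neutrophil and 1 macrophage markers were below the floor in both arrays. Medians of these lists are given below for comparison only, because their ranges were wide. Bright stromal markers ran from -0.15 to 2.87 and neutrophil granule markers from -0.43 to 2.57. The part of other cells in the protease differences was not tested.

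**Figure D2:**
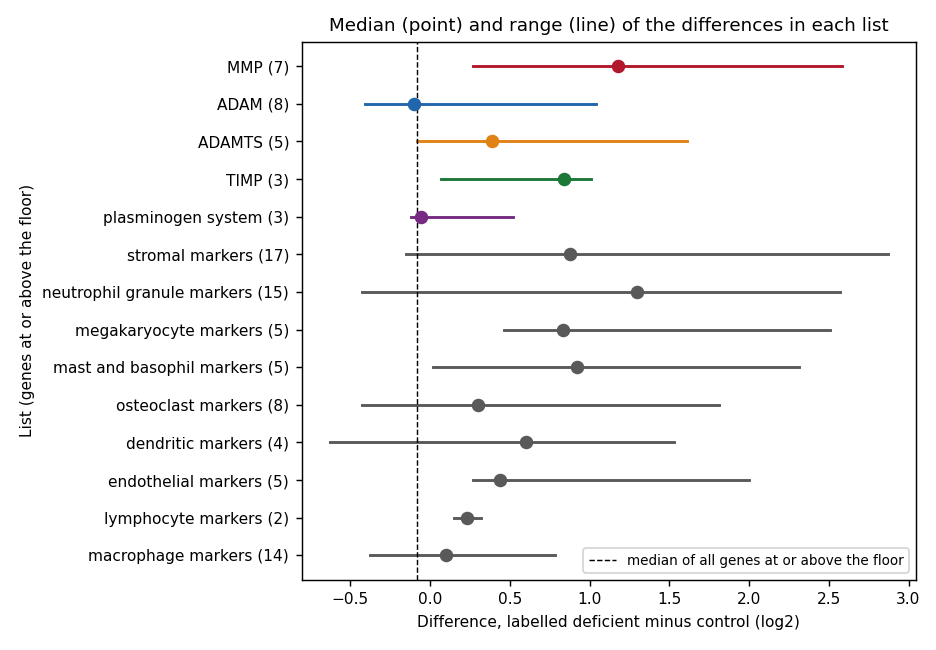
Difference in log2 RMA value, array labelled deficient minus control, for each protease family and each marker list, over the bright genes (their number in brackets). Points are medians, lines run from the lowest to the highest gene, and the dashed line is the median of all bright genes, -0.08. The MMP median of 1.18 lies between the stromal (0.88) and neutrophil granule (1.30) medians, and the ADAM median of -0.10 lies close to the dashed line.

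All 7 bright MMP genes were higher in the array labelled deficient, 5 of them by at least 1.5-fold and 4 by at least 2-fold, with a family median of 1.18. Mmp13 (transcript cluster 10583044), collagenase-3, which cuts fibrillar collagens, had 11.3 in the array labelled deficient and 8.72 in the control array. That is a difference of 2.58, or 5.98-fold, and 12 of the 10658 bright genes had a higher one. Both of its values lay above the floor, so its difference does not turn on the dim range. Mmp19 (cluster 10367400), a secreted MMP that cleaves basement membrane proteins, had 10.23 in the array labelled deficient and 8.83 in control, 2.65-fold higher. Mmp23 (cluster 10519140), an unusual membrane-anchored MMP without a hemopexin domain, had 9.31 in the array labelled deficient and 7.93 in control, 2.61-fold higher. Between these 2 genes the differences of 1.40 and 1.38 were nearly equal.

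Mmp12 (cluster 10583056), the macrophage elastase, had 13.04 in the array labelled deficient and 11.86 in the control array, a 2.27-fold difference between bright values. Mmp2 (cluster 10573924), gelatinase A, had 10.88 in the array labelled deficient and 9.95 in control, 1.90-fold higher. Of the 5 member MMPs past 1.5-fold it was the 1 short of 2-fold in the deposited values, and after centring on the median of the bright genes its difference was 1.01. Mmp14, the membrane-type MMP that activates pro-MMP2 at the cell surface, had 10.11 in the array labelled deficient and 9.85 in control, a difference of 0.27. The enzyme that activates gelatinase A was within 1.5-fold while the gelatinase itself was not.

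The stromelysin genes were within 1.5-fold. Mmp11, stromelysin-3, had 7.78 in the array labelled deficient and 7.40 in control (0.38), close to the floor in both. Mmp10, stromelysin-2, had 6.90 in the array labelled deficient and 6.64 in control (0.26). Mmp3, stromelysin-1, had 5.57 in the array labelled deficient and 5.87 in control (-0.30). Mmp10 and Mmp3 lie in the dim range, where differences of all genes leaned lower (a median of -0.15 with no floor and -0.08 among bright genes), and after quantile normalization the difference of Mmp3 was 0.00.

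In the order of the Mmp genes along chromosome 9, higher and dim genes lay side by side. The order in RefSeq is Mmp13, Mmp12, Mmp1b, Mmp3, Mmp1a, Mmp10, Mmp8, Mmp27, Mmp20 and Mmp7. The 4 genes with values at or above the floor were all over 2-fold higher in the array labelled deficient, each with both arrays above the floor, and the other 6 were below it in both arrays. Besides Mmp13 and Mmp12 these were Mmp8, the neutrophil collagenase, with 11.69 in the array labelled deficient and 10.25 in control (1.44), and Mmp27, with 9.21 in the array labelled deficient and 7.86 in control (1.35). Mmp8 protein is stored in neutrophil granules, and the neutrophil granule markers had a median of 1.30, with a range from -0.43 to 2.57. The source of the Mmp8 signal was not tested. The 6 dim genes were Mmp1b (-0.63), Mmp3 (-0.30), Mmp1a (-1.03), Mmp10 (0.26), Mmp20 (-0.02) and Mmp7 (-0.40), so 5 of them were lower in the array labelled deficient. Set against the printed windows, AP-1 letters occurred both beside higher genes (Mmp13, Mmp12) and beside dim ones (Mmp3, Mmp10), and the Mmp8 window held none. The Mmp genes of this cluster are similar in sequence, and shared probe signal between copies was not tested.

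**Figure D3:**
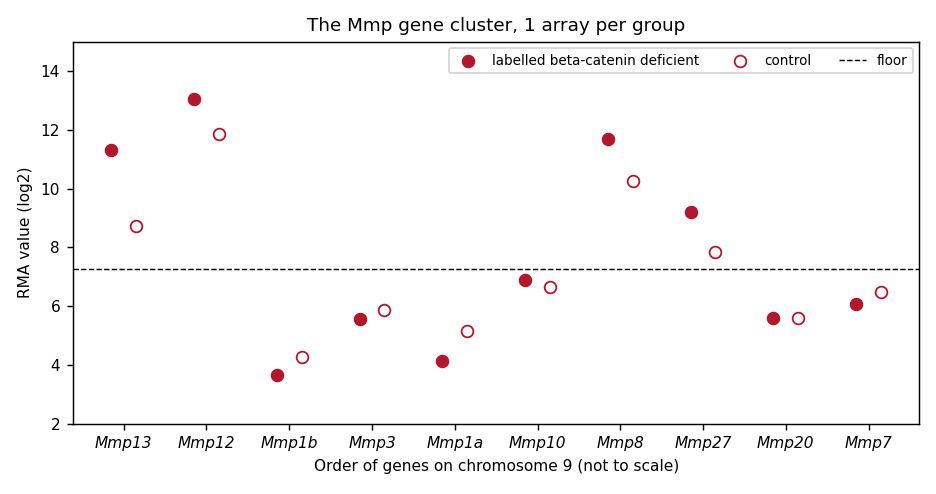
RMA values (log2, vertical axis) of 10 Mmp genes in their order on chromosome 9, with the array labelled beta-catenin deficient as filled points, the control array as open points and the floor of 7.28 as a dashed line. Mmp13, Mmp12, Mmp8 and Mmp27 lie above the floor in both arrays with the filled point higher, and the other 6 genes lie below it.

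Of 13 Mmp genes with a row outside the 31 symbols, 3 were at or above the floor, and all 3 were over 2-fold higher in the array labelled deficient. They were Mmp8 and Mmp27 of the chromosome 9 cluster and Mmp9, which lies elsewhere. Mmp9, gelatinase B, which osteoclasts, neutrophils and activated macrophages make, had 11.23 in the array labelled deficient and 10.17 in control, a difference of 1.07. The neutrophil granule markers had a median of 1.30 (range -0.43 to 2.57) and the osteoclast markers one of 0.30 (-0.43 to 1.81). The macrophage markers had a median of 0.10 (-0.38 to 0.78). The source of the Mmp9 signal was not tested. With no floor, 4 of the 13 were past 1.5-fold higher and 3 lower, and their median was -0.02. The dim ones past 1.5-fold were Mmp16 (0.83), Mmp1a (-1.03), Mmp25 (-0.80) and Mmp1b (-0.63).

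ADAM genes were nearly level, apart from Adam23. Of 8 bright ones, 7 were within 1.5-fold, 1 was higher (7.54% of all bright genes) and 0 lower (8.81%). Being within 1.5-fold was common to most bright genes, 8915 of 10658. The family median was -0.10, beside -0.08 for all bright genes. Adam17, the enzyme that releases tumour necrosis factor, had 11.17 in the array labelled deficient and 11.02 in control (0.15). Adam10, which cuts Notch receptors and many adhesion molecules, had 10.29 in the array labelled deficient and 10.62 in control (-0.33). The differences of these main sheddases had opposite signs and were both within 1.5-fold.

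Adam8, a myeloid ADAM, had 12.30 in the array labelled deficient and 12.46 in control (-0.17), and Adam9 had 11.25 in the array labelled deficient and 11.17 in control (0.08). Adam15, which carries an integrin-binding motif in its disintegrin domain, had 11.05 in the array labelled deficient and 11.43 in control (-0.38). Adam19 had the lowest difference of the 26 members above the floor, with 8.91 in the array labelled deficient and 9.33 in control (-0.41, 1.33-fold lower). The 7 bright ADAM genes other than Adam23 lay between -0.41 and 0.15.

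Adam23 (cluster 10346882) encodes a family member without protease activity that is known as an adhesion protein of neurons. It had 8.04 in the array labelled deficient and 6.99 in control, 2.06-fold higher, with the control value below the floor. Adam12, a muscle and stromal ADAM, had 7.44 in the array labelled deficient and 7.47 in control, and its difference of -0.03 turned to 0.05 under centring and quantile normalization and to 0.07 with a loess curve of difference on level subtracted. Adam28, a lymphocyte ADAM, had 5.57 in the array labelled deficient and 5.93 in control (-0.37), both below the floor. Of 23 other Adam genes with a row, 22 lay below the floor in both arrays, and Adam33 (0.02) was the exception.

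Partners of the 2 main sheddases were within 1.5-fold, with 1 exception. The 7 bright ones included iRhom proteins that carry ADAM17 to the surface and tetraspanins that guide ADAM10. Of these 7, 0 were higher by 1.5-fold or more (7.54% of all bright genes) and 1 lower (8.81%), and the median was -0.20. The highest were Rhbdf1 (iRhom1, 0.51) and Frmd8 (0.24), and the lowest were Tspan33 (-0.82) and Tspan17 (-0.49). Tspan33, the exception, passed the floor through control alone, with 6.53 in the array labelled deficient and 7.35 in control. Of 3 bright proprotein convertases, which remove the prodomain of ADAMs and of some MMPs, Furin was the one past 1.5-fold, with 9.96 in the array labelled deficient and 10.66 in control (-0.71). Pcsk6 (-0.32) and Pcsk7 (0.04) were within 1.5-fold.

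The ADAMTS family split between a neighbouring pair and the rest. Adamts1 (cluster 10440522), a protease that cleaves the proteoglycans versican and aggrecan, had 8.67 in the array labelled deficient and 7.08 in control, 3.01-fold higher. Adamts5 (cluster 10440534), the main aggrecanase of mouse cartilage, had 8.32 in the array labelled deficient and 6.71 in control, 3.04-fold higher. The pair lies next to each other on chromosome 16 in RefSeq, with 0 protein-coding genes between them, and their differences were 1.59 and 1.61. Both control values were below the floor, so the size of these folds depends on values in the dim range. For comparison, the stromal marker median was 0.88, with a range from -0.15 to 2.87. The source of the Adamts1 and Adamts5 signals was not tested.

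Adamts4, another aggrecanase, had 7.31 in the array labelled deficient and 7.40 in control, and its difference of -0.08 was 0.02 after the loess curve was subtracted. Adamts10, which binds fibrillin microfibrils, had 9.0 in the array labelled deficient and 8.61 in control (0.39). Adamts12 had 7.88 in the array labelled deficient and 7.73 in control (0.15). The other 3 measured members lay between -0.08 and 0.39. Of 8 other bright ADAMTS and ADAMTS-like genes, 0 were higher by 1.5-fold or more and 1 lower: Adamts3, a procollagen protease (-0.76). Adamts3 passed the floor through control alone, with 7.09 in the array labelled deficient and 7.85 in control. The next lowest was Adamts17 (-0.22), and the highest were Adamts9 (0.55) and Adamtsl4 (0.30).

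**Figure D4:**
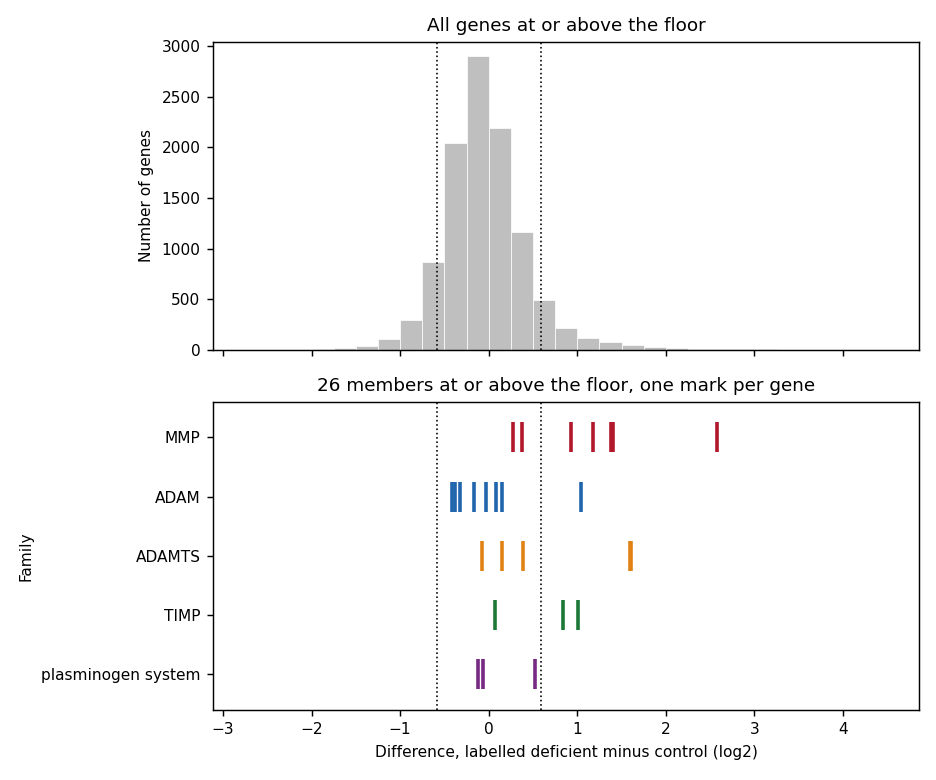
Top, number of genes (vertical axis) by difference in log2 RMA value, array labelled deficient minus control, over the 10658 bright genes. Bottom, the 26 members at or above the floor by family on the same axis, 1 mark per gene, with dotted lines at 1.5-fold. There are 10 marks to the right of the upper line, led by Mmp13 at 2.58, and 0 to the left of the lower line.

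Of the 3 TIMP genes among the members, Timp1 and Timp3 were past 1.5-fold higher and Timp2 was not. Timp1 (cluster 10598976), a soluble inhibitor that many cells induce under inflammation, had 11.87 in the array labelled deficient and 10.85 in control, 2.02-fold higher. Timp3 (cluster 10365482), which binds to matrix and also inhibits ADAM17 and the aggrecanases, had 10.98 in the array labelled deficient and 10.14 in control, 1.79-fold higher. Timp2, which also takes part in the activation of pro-MMP2 by MMP14, had 11.23 in the array labelled deficient and 11.16 in control (0.07). Timp2 and Mmp14, partners in that activation step, were both within 1.5-fold. The stromal marker median of 0.88 lay between the Timp3 and Timp1 differences of 0.84 and 1.01. Stromal markers ran from -0.15 to 2.87, and the medians of mast and basophil (0.92) and megakaryocyte markers (0.83) lay close by. The source of the Timp signals was not tested. Of 6 other metalloprotease inhibitors, 0 were past 1.5-fold in either direction. The 2 bright ones were Reck, a membrane-anchored MMP inhibitor (0.12), and the proteoglycan Spock2 (-0.25), and the 4 dim ones were Timp4 (-0.57), Pzp (-0.56), A2m (-0.24) and Spock1 (-0.12).

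The urokinase system was level between the arrays. Plau, the gene of urokinase, had 11.78 in the array labelled deficient and 11.84 in control, and its difference of -0.06 became 0.02 under centring. Plaur, the receptor that holds urokinase at the cell surface, had 10.43 in the array labelled deficient and 10.56 in control (-0.12). Plat, the tissue plasminogen activator, had 7.30 in the array labelled deficient and 6.78 in control, a 1.43-fold difference. Plat fell just short of 1.5-fold. Its 0.52 became 0.60 under centring, 0.63 after quantile normalization and 0.64 with the loess curve subtracted, and its control value lay below the floor.

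Some other genes of plasmin control went further apart than the activators. Of 8 bright ones, 3 were higher by 1.5-fold or more (7.54% of all bright genes) and 1 lower (8.81%). The other 4 were within 1.5-fold, and the median of the 8 was 0.21. Serping1, an inhibitor of C1 and kallikrein that also acts on plasmin, had 10.66 in the array labelled deficient and 7.61 in control (3.04). Serpinb2, plasminogen activator inhibitor 2, had 8.21 in the array labelled deficient and 7.14 in control (1.07), with the control value below the floor. Thbd, thrombomodulin, differed by 0.62, and the lowest were the plasminogen receptor gene Plgrkt (-0.67) and Serpinb8 (-0.12).

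Transcription factors known to act on MMP promoters were mostly within 1.5-fold. Of 13 bright ones, 1 was higher by 1.5-fold or more (7.54% of all bright genes) and 1 lower (8.81%), and the median was 0.01. The highest were the AP-1 genes Fosl1 (0.61) and Jun (0.37), and the lowest were the AP-1 gene Fosb (-1.14) and Ets2 (-0.54). Fosb passed the floor through control alone, with 6.84 in the array labelled deficient and 7.98 in control.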

How the data were processed

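RNA of 2 macrophage cultures was measured, 1 array a group. The deposited table holds 25917 rows of log2 values, 1 column per sample, made by the authors with RMA per the submitters' processing notes. The sources used here do not give the RMA version, settings or any row filter. The log2 scale was read from the range of values, 2.12 to 14.1, and column medians were 7.24 in the array labelled deficient and 7.31 in control. The control column carries more digits than the other, and no source says whether both came from 1 RMA run. The platform annotation gave 1 symbol for 21632 rows, several for 1560 and none for 2725. The row with the highest mean was kept per symbol.

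Differences were computed with pandas 2.3.3 and loess curves with statsmodels 0.14.6 (fraction 0.3). Counts used 1.5-fold and 2-fold and a floor of 7.28, and the counting was tested on simulated data. Members and lists were chosen with earlier results of these data known. All members are named with both values; of each pathway list, the 2 highest and 2 lowest genes with a value reaching the floor and any past 2-fold. Alternatives were other floors, centring, quantile normalization, loess and averaging of transcript clusters.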

Additional observations from a re-analysis of the deposited data

How the results depend on the processing

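The count of members at least 2-fold higher was 8 in the reported setting (2.96% of all bright genes). It was 5 of 17 with a floor at the 75th percentile of all values (9.07), against 3.38% of all genes. With both arrays required to be at or above 7.28, an alternative chosen after seeing the data, it was 5 of 22, against 2.09%. Both leave fewer genes to count. Both lose the calls of Adam23, Adamts1 and Adamts5, whose control values lay below 7.28. Under the other alternatives run (no floor, floor on the mean, centring, quantile normalization, loess, mean of transcript clusters) the count was 8 or 9. Shares of all genes there ran from 1.77% to 3.39%. The count at least 1.5-fold higher ran between 7 and 11, against 4.98% to 9.41% of all genes. The counts lower stayed at 0 at both folds, against 6.26% to 13.0% at 1.5-fold and 1.09% to 2.34% at 2-fold. The median of the members ran between 0.15 and 0.41 under these alternatives. It lay between 0.27 and 0.38 when 1 member was left out, and the mean was 0.54. No called member changed sign under centring, quantile normalization, loess or cluster averaging. Plat crossed 1.5-fold under 3 of these (0.60, 0.63 and 0.64). Mmp3, Adam12, Adamts4 and Plau, all within 1.5-fold, changed sign under at least 1 of them. No paired analysis was possible because each group had 1 array. RMA values carry no depth or detection call, so dim genes have no bound here.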

Other observations

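Genes of matrix proteins that these proteases cut were higher in the same array. Of 20 bright ones (those with a value reaching 7.28), 13 were higher by 1.5-fold or more and 0 lower in the array labelled deficient. Among all bright genes these shares were 7.54% and 8.81%. The median was 0.98 beside -0.08 for all bright genes. The highest were decorin, Dcn (1.93), and the collagen chain Col1a2 (1.75). Others past 2-fold were Vcan (1.54), the proteoglycan that ADAMTS1 cuts, Col6a3 (1.39), Col6a2 (1.26), Bgn (1.21), Col6a1 (1.12), the laminin chain Lama4 (1.07) and Col1a1 (1.04). Elastin, Eln, the substrate of the macrophage elastase, had the lowest difference (-0.43), and Col2a1 was next (0.09). Eln reached 7.28 in control alone, with 6.92 in the array labelled deficient and 7.35 in control. Lama4 reached 7.28 only in the array labelled deficient, with 7.83 there and 6.75 in control. Col1a1, Col1a2, Col3a1 and Dcn are also among the stromal markers, whose median was 0.88.

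Most substrates of ADAM10 and ADAM17 were within 1.5-fold. Of 21 bright ones, 3 were higher by 1.5-fold or more (7.54% of all bright genes) and 2 lower (8.81%), and the median was 0.13. The higher ones were the growth factor Csf1 (1.18), the proteoglycan Sdc1 (1.03) and the adhesion molecule Vcam1 (1.01). The lower ones were tumour necrosis factor, Tnf (-0.68), and the Notch ligand Jag1 (-0.63). Transcript levels say nothing about how much of these proteins was cut.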
